A study of Homo sapiens with 2 samples.

Results

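LAPTM5 and KLHL14 are 2 genes whose surroundings carry PAX5 sites among the most enriched of a genome-wide list. Occupancy by PAX5 was measured with chromatin immunoprecipitation followed by sequencing (ChIP-seq). The cells were NALM6, an established line of human B-cell precursor acute leukaemia, grown untreated for 4 days in medium without phenol red, with 10% serum and 2 mM glutamine. An Abcam PAX5 antibody was used for the 1 ChIP sample. The 1 input control had no antibody and was labelled as the same line, although RXL also stands in its title, unexplained in the labels. Likewise, the header names the pooled ChIP reads with the tag 0hr, a time on which the labels are silent. The genes were chosen by the fold enrichment of these same peaks, so the folds below describe the sites and test nothing. Members are all peaks with a summit in the hg19 gene windows, taken to the nearest kb, plus 20 kb on each side. For LAPTM5 the gene window was chromosome 1 from 31205000 to 31231000 and for KLHL14 chromosome 18 from 30252000 to 30353000. Of 21361 peaks in the list, 14 were members, 12 at LAPTM5 and 2 at KLHL14. With 1 sample of each kind and no replicate, intervals cover counting error only.

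The transcription factor PAX5 binds DNA through a paired domain. It commits lymphoid progenitors to the B lineage and activates or represses genes through promoters and distal elements. LAPTM5 encodes a lysosomal transmembrane protein of haematopoietic cells that sends the pre-B-cell and B-cell receptors, and the T-cell receptor in T cells, to the lysosome for degradation. KLHL14 encodes a BTB-Kelch protein, a family that brings substrates to Cullin-3 ubiquitin ligases, and is known in B cells for promoting the turnover of the B-cell receptor and as a gene mutated in lymphoma. Both genes lie on the minus strand, so transcription runs towards lower coordinates and the start site is at the upper end of the gene window. In RefSeq order LAPTM5 lies between the protein-coding genes MATN1, on its 3′ side, and SDC3, on its 5′ side, and holds MIR4420, a microRNA gene. KLHL14 lies between GAREM1, on its 3′ side, and CCDC178, on its 5′ side.

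The RefSeq promoter table (GRCh38.p14) held 1 of the 2 genes, LAPTM5. Its 250 bases before the start site, on chromosome 1 from 30757775 to 30758024 of that build, minus strand, are shown because a PAX5 peak lay next to the annotated start. Capitals mark every match, on either strand, to 11 short motifs of B-cell and general promoter factors.
LAPTM5 promoter: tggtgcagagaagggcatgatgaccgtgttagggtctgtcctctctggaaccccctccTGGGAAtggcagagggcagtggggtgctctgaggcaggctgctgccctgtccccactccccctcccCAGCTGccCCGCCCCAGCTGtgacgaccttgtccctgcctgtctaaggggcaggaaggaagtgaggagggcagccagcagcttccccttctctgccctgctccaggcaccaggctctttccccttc
The matches were 1 Ikaros-type TGGGAA, from 192 to 187 bases before the start, 2 E-box CAGCTG, from 126 to 121 and from 112 to 107, and 1 GC box GGGCGG on the opposite strand, from 118 to 113, with the GC box next to the second E-box. In the table's 300-base windows, which add the 50 bases after the start, no other match was found for LAPTM5. Of all 35116 promoters, 24.0% held TGGGAA, 17.9% CAGCTG and 45.0% GGGCGG on either strand. The PAX5 core letters GCGTGAC and GCATGAC, held by 2.52% and 1.67% of all promoters, were not in this window, nor were CCCNNGGG (EBF1), CCGGAA (ETS), CAGGTG (E2A), TGTGGT (RUNX), TATAAA or CCAAT. The window had a GC content of 64.7%, against a median of 58.7% over all promoters, and 5 CG dinucleotides against a median of 14. Only the listed strings were searched, so other forms of each factor's site were not counted. These letters describe the reference alone. They cannot be laid under the hg19 peaks, since positions were not moved between builds.

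At LAPTM5 the strongest PAX5 site was inside the gene and the site nearest the start was a weak one. The strongest peak ran from 31227358 to 31228021 on chromosome 1, with its summit at 31227712, 3.29 kb downstream of the start. Its summit was covered by 299 extended ChIP reads (exact Poisson 95% interval 266 to 335) over an input background of 10.6 reads at input depth, which rests on 47 input reads in the 1 kb around it. The authors' fold enrichment, the ratio of scaled ChIP reads to the local input background with a pseudocount of 1, was 14.3 (12.7 to 16.0 with the background held fixed). With counting error in both libraries and no pseudocount, the ratio was 15.6 (exact 95% interval 11.4 to 21.6). The peak nearest the start ran from 31230428 to 31230734, with its summit 0.42 kb inside the gene window, a distance within the rounding of that window. It held 60 reads (45.8 to 77.2) over a background of 9.23 and a fold of 3.33 (2.56 to 4.25). For LAPTM5 the strongest summit thus stood 3.29 kb from the start site, near it but not at it. Since folds chose the gene, the gap in fold between these peaks was not tested.

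At KLHL14 the strong peak spanned the start site. It ran from 30352336 to 30353713 on chromosome 18, from 0.664 kb inside the gene to 0.713 kb beyond its start, and its summit at 30353058 was 0.058 kb from the start, which is less than the rounding of the gene window. The summit was covered by 234 reads (205 to 266) over a background of 6.08 reads, from 27 input reads in 1 kb, with a fold of 18.3 (16.1 to 20.8). The ratio with counting error in both libraries was 21.2 (14.2 to 32.9). The other KLHL14 peak, from 30340369 to 30340757, lay 12.4 kb into the gene and held 86 reads (68.8 to 106) over a background of 12, a fold of 3.72. The start-site peak thus had 4.93 times the fold of the intragenic one and 73.1% of the reads counted over both summits.

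**Figure D1:**
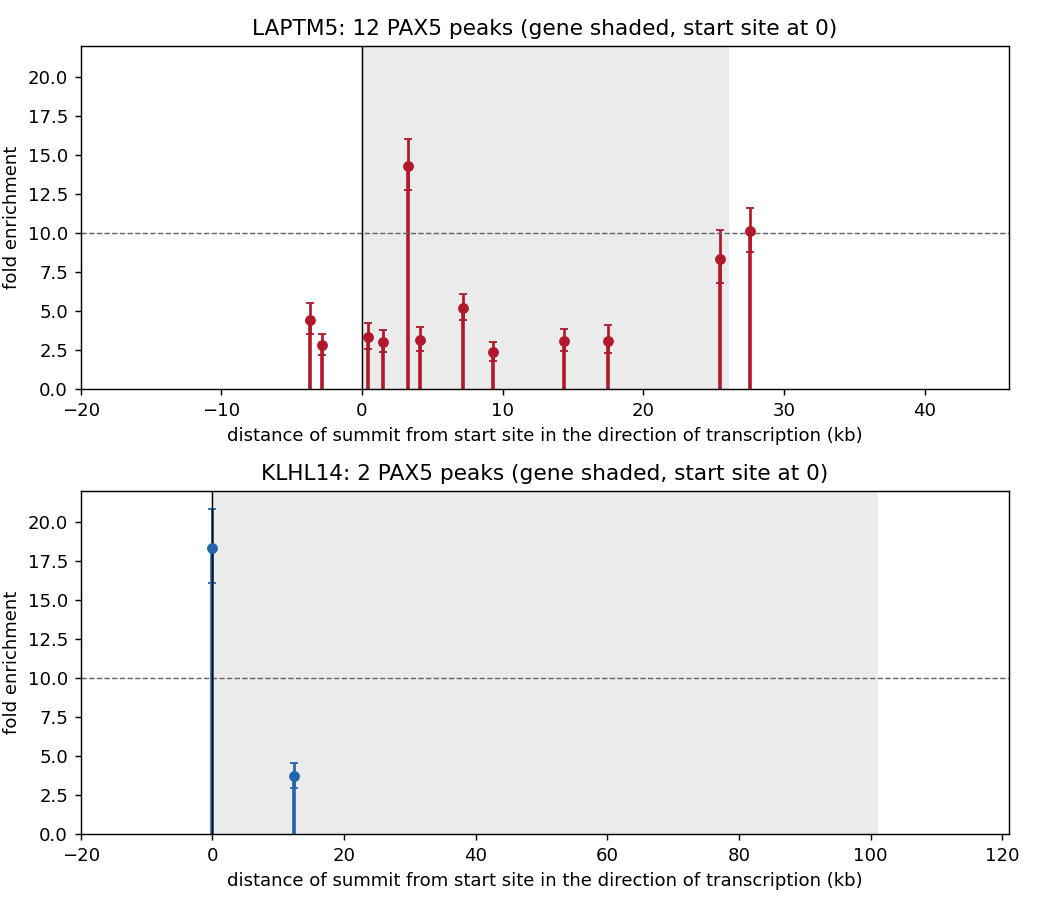
Fold enrichment of each PAX5 peak (vertical axis) against the distance of its summit from the start site in kb, positive in the direction of transcription (horizontal axis), for LAPTM5 above and KLHL14 below. The gene is shaded, bars are intervals from the Poisson error of the ChIP reads, and the dashed line is a fold of 10: LAPTM5 has 12 peaks with 2 above the line, at 3.29 and 27.6 kb, and KLHL14 has 2 with the strong one at the start.

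The LAPTM5 sites formed a cluster along the whole gene. Of the 12 peaks, 9 had summits within the gene window, 2 lay upstream of the start and 1 lay past the 3′ end. Their summits spanned 31.3 kb, with gaps between neighbours of 0.854 to 7.96 kb and a median of 2.14 kb. Fold enrichment ran from 2.34 to 14.3 with a median of 3.23, below the median of 3.89 over the whole list, and 7 of the 12 were below that list median. A fold of at least 10 was reached by 2 of the 12 and by 1 of the 2 KLHL14 peaks, against 1.72% of all peaks. A fold of at least 5 was reached by 4 of the 12 and by 1 of the 2, against 25% of all peaks. Since folds chose the genes, nothing is read from these shares.

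A pair of strong LAPTM5 sites stood at opposite ends of the gene. The second strongest peak, from 31202869 to 31203595, had its summit 1.62 kb past the 3′ end and 24.3 kb from the strongest, with 201 reads (174 to 231) over a background of 10 and a fold of 10.1 (8.80 to 11.6). This second peak had rank 345 by fold, and its ratio with counting error in both libraries was 11.1 (5.89 to 23.4). Beside it, a peak from 31205272 to 31205908 lay at the 3′ border, 0.522 kb inside the gene, with 92 reads (74.2 to 113) over a background of 5.18 and a fold of 8.36 (6.77 to 10.2). The fold intervals of this pair at the 3′ end overlap, although the reads differ, because the input background was lower at the border. Of the 367 peaks with a fold of at least 10, all on chromosomes 1 to 22 and X, 29 (7.90%) had another such peak within 24.3 kb. That distance is the spacing of the strongest and second strongest LAPTM5 peaks, so both are among the 29 by construction.

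Another LAPTM5 site, of intermediate strength, lay in the gene body. The peak from 31223367 to 31224146, 7.20 kb downstream of the start, held 159 reads (135 to 186), the third highest count of the cluster. Its background of 16 reads was the highest of the 12, and its fold was 5.21 (4.44 to 6.07). By reads it had rank 643 in the list and by fold rank 4697, so its place depended on the input.

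The remaining 8 LAPTM5 peaks all had a fold under 5. They held 49 to 79 reads over backgrounds of 8 to 14 reads, with folds of 2.34 to 4.45. The lowest fold, 2.34 (1.81 to 2.98), was 9.33 kb into the gene, with 62 reads over a background of 14. The highest, 4.45 (3.54 to 5.52), was 3.72 kb upstream of the start, with 79 reads over a background of 9. With the background held fixed, its interval does not overlap that of the lowest. With counting error in both libraries the ratio intervals of the highest and lowest overlap (2.42 to 10.95 against 1.35 to 4.71), so a difference among the 8 is not shown. A neighbour 2.83 kb upstream held 69 reads over a background of 12.8 and a fold of 2.82 (2.21 to 3.55). The peak 1.48 kb inside the gene, between the start and the strongest site, also held 69 reads, with a fold interval of 2.35 to 3.77. The peak 4.14 kb inside the gene, with 68 reads and a fold of 3.14 (2.45 to 3.95), lay only 0.854 kb from the strongest summit. The fold intervals of these 4 neighbours of the start, 2 upstream and 2 inside, overlap that of the peak nearest the start.

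**Figure D2:**
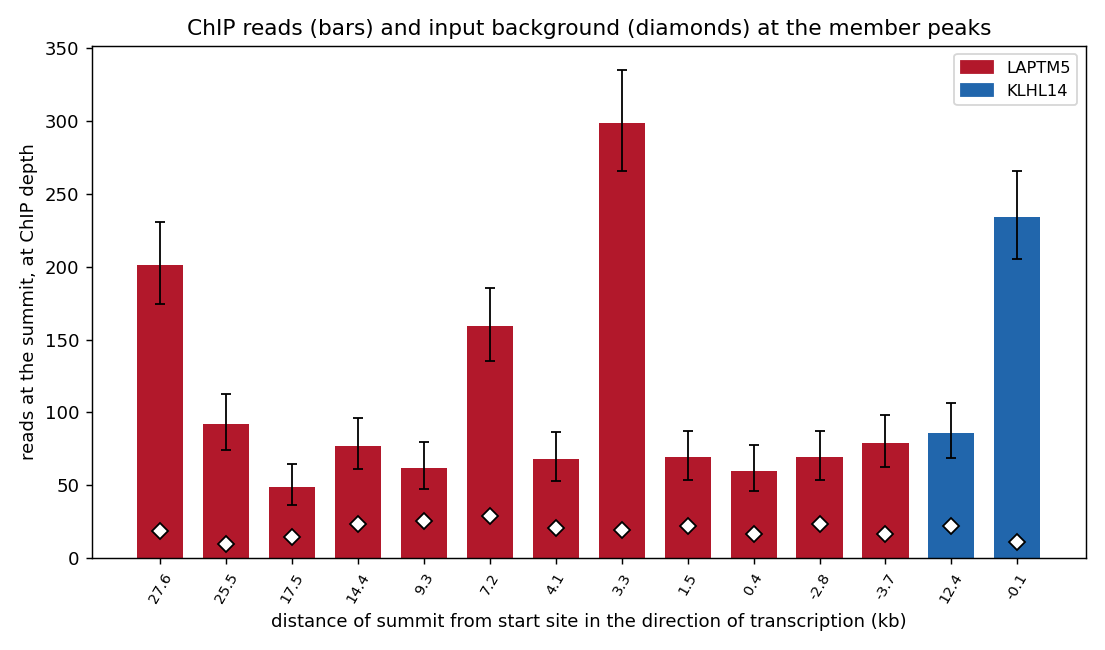
ChIP reads at each member summit (bars, with exact Poisson 95% intervals) and the input background brought to ChIP depth (diamonds), in coordinate order and labelled by distance from the start site in kb. The tallest bars are 299 and 201 reads at LAPTM5 and 234 reads at KLHL14, and the 8 LAPTM5 peaks with a fold under 5 lie between 49 and 79 reads.

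Input reads were above the list's usual level along LAPTM5 but not at the KLHL14 start. The background under the 12 LAPTM5 peaks ran from 5.18 to 16 reads with a median of 10.9, and 10 of them exceeded the median of 8 over all peaks. It was set by the window of 225 bp at the summit for 7 of them and by the 1 kb window for 5, and for 1 of the 7 both windows gave the same value. At KLHL14 the backgrounds were 12 reads at the intragenic peak and 6.08 at the start. For the 367 strong peaks the median background was 7 reads, and 8.72% of them had one at least as high as the strongest LAPTM5 peak, against 62.9% for KLHL14. The part of the input in the number of LAPTM5 peaks was not tested.

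The strong sites of the genes changed order with the measure. By fold, the KLHL14 start-site peak had rank 12 of 21361 and the LAPTM5 peak rank 45. By −log10 q, the caller's adjusted significance, LAPTM5 had rank 9 (125) and KLHL14 rank 22 (113). By reads at the summit LAPTM5 had rank 9 and KLHL14 rank 63. KLHL14 held the highest fold of the 415 peaks on chromosome 18, and LAPTM5 the third highest of the 1936 on chromosome 1. By reads LAPTM5 was the higher, with intervals that do not overlap (266.07 to 334.9 against 205.0 to 265.98) but nearly touch. By fold KLHL14 was the higher, and with the background held fixed the intervals also do not overlap (12.7 to 16.0 against 16.1 to 20.8). Once the counting error of the input is added, the ratio intervals given above overlap, so the order by fold rests on taking the input background as exact. Next above KLHL14 stood a fold of 18.5, on chromosome X from 40028610 to 40029555, and next below one of 18.1, on chromosome 3 from 12223191 to 12223781. Next above LAPTM5 stood a fold of 14.4, on chromosome X from 149532971 to 149533424, which rested on 103 reads and a background of 3. Next below was a fold of 14.3, on chromosome 13 from 114964115 to 114965242, which rested on 79 reads over the genome mean of 2.12. The LAPTM5 summit reached a like fold with 299 reads.

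**Figure D3:**
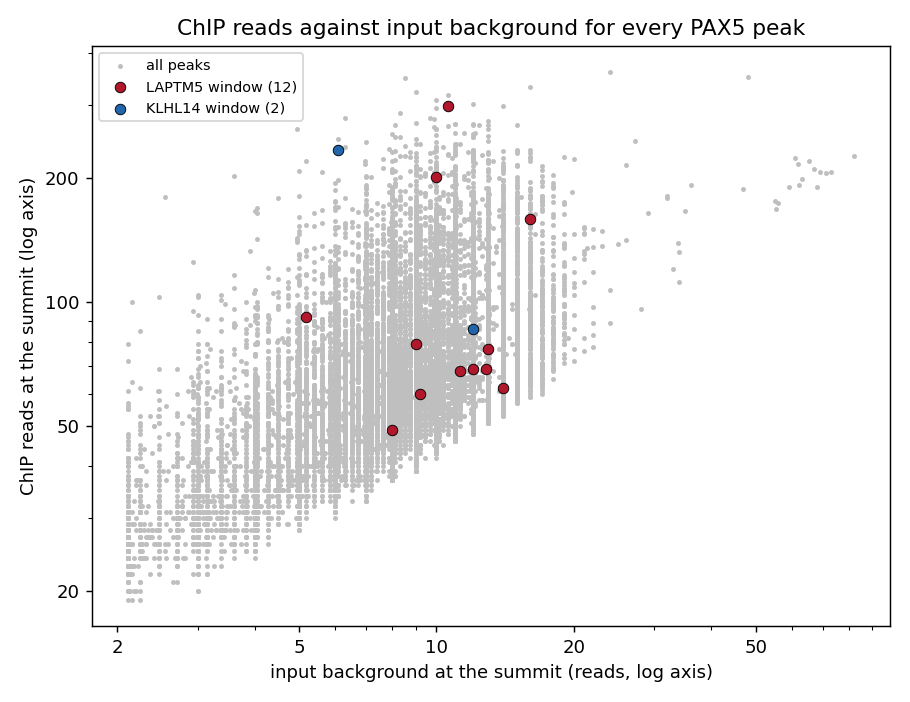
ChIP reads at the summit (vertical, log axis) against the input background in reads (horizontal, log axis) for all 21361 peaks in grey, the 12 LAPTM5 peaks in red and the 2 KLHL14 peaks in blue. The strongest LAPTM5 peak stands at 299 reads over a background of 10.6 and the KLHL14 start-site peak at 234 over 6.08, while most LAPTM5 peaks lie in the body of the cloud.

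The shapes of the strong peaks differed in width. The KLHL14 peak was 1378 bp wide, rank 176 of the list, and 30 of the 367 strong peaks (8.17%) were at least as wide. Its summit stood 722 bp from the lower border and 655 bp from the upper one. The LAPTM5 peak was 664 bp wide, near the median of 690 bp for strong peaks, with 354 and 309 bp on either side of its summit. The median width over all peaks was 383 bp.

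The neighbourhoods also differed. Within 20 kb of the strongest LAPTM5 summit lay 9 other summits, the highest number around any of the 367 strong peaks and reached by 3 of them (0.817%). The other two were a peak of fold 15.5 on chromosome 14 from 106328079 to 106328935 and the chromosome X peak next above KLHL14 in rank. Over all peaks of the list, 0.915% had at least 9 others within 20 kb, a share close to that of strong peaks. At most 9 were found around 99.5% of all peaks on these chromosomes, so some had more. The LAPTM5 count thus marks a dense region. Whether such counts go with strength was not tested, and only 3 strong peaks reached this one. The KLHL14 summit had 1 other within 20 kb, which was the median for strong peaks and for all peaks on these chromosomes. The LAPTM5 window held 18.2 peaks per 100 kb, against 0.779 over chromosome 1, and its peaks covered 9.32% of it, against 0.355% of the effective genome for the whole list. The KLHL14 window held 1.42 per 100 kb, against 0.534 over chromosome 18, and its peaks covered 1.25% of it. The rule put a strong peak in each window, so part of the excess over these averages was fixed in advance, above all at KLHL14.

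**Figure D4:**
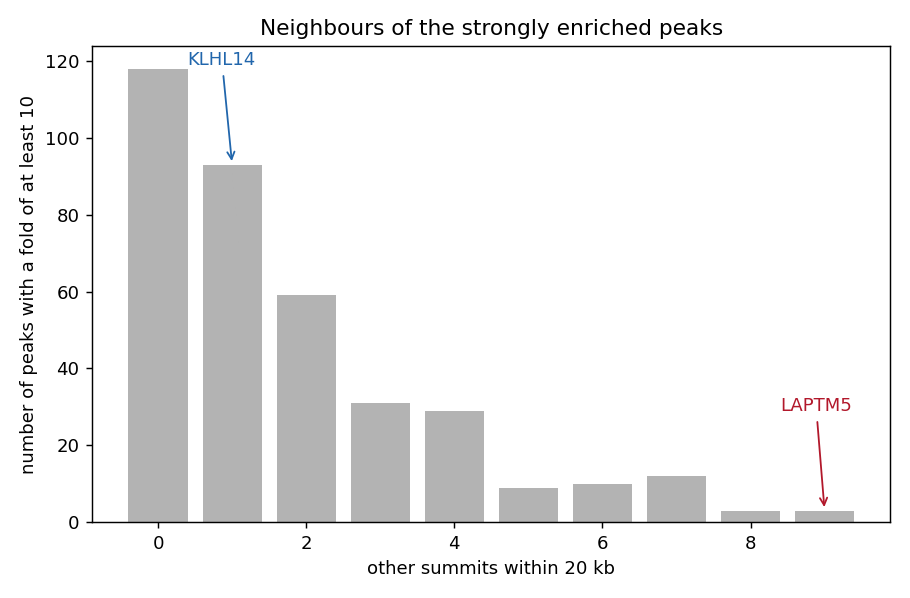
Strong peaks, with fold 10 or more, counted (vertical axis) by how many other summits lie within 20 kb (horizontal axis), over 367 peaks. LAPTM5 is in the last bar, with 9 neighbours, and KLHL14 in the bar for 1.

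Fixed tiles of the same length gave the background for these counts. Of 45947 tiles of 66 kb, laid from the first base of each chromosome, 21 (0.0457%) held 12 or more peaks and 76.7% held none. This grid divided the LAPTM5 cluster between 2 tiles. With the grid moved by 33 kb, which makes a tile of the LAPTM5 window itself, 16 of 45933 tiles held 12 or more. Of 21513 tiles of 141 kb, the length of the KLHL14 window, 4534 (21.1%) held 2 or more peaks and 63.4% held none. Since the rule put a strong peak in each gene's window, tiles that held none are not like these windows.

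The edges of the LAPTM5 window did not cut through its cluster, whereas the KLHL14 count depended on the flank (2 peaks with 20 kb, 4 with 50 kb). The last peaks inside the LAPTM5 window lay 18.4 and 16.3 kb from its borders. The first outside lay 6.23 kb beyond the lower border, at 31178774 with a fold of 4.01, and 29.4 kb beyond the upper one, at 31280376 with a fold of 5.00. The KLHL14 start-site summit lay 19.9 kb from the upper border of its window, and the next summit, at 30382749 with a fold of 3.90, lay 9.75 kb beyond it. On the other side, 88.6 kb of the gene towards its 3′ end held no peak after the intragenic one, and the first peak outside was 66.4 kb beyond the window, at 30165622 with a fold of 2.56. All 14 members were in the authors' cleaned list with identical borders.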

How the data were processed

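PAX5 ChIP-seq of 1 ChIP sample was compared with 1 input control. BWA alignment to hg19 is named in the submitters' processing notes. MACS2 2.1.1.20160309, per the file headers, called peaks at q 0.05 on a pooled ChIP alignment (46190180 tags) against a combined control (25416858 tags), with 50 bp reads extended to 225 bp. How many libraries were pooled is not stated in the labels or headers, and a pool hides their spread. The deposited pileup signal is scaled to the control depth (by 0.550). The deposited fold is a ratio with a pseudocount of 1. The deposited −log10 p and q are the caller's. A cleaned list, positions only, comes from a step that the labels do not describe.

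ChIP reads were recovered as pileup over the scale (100% whole within 0.005). Input background was recovered from the fold and expressed as whole input reads in the window (225, 1000 or 10000 bp) that set it. The caller takes the largest of these, which lowers folds. Recomputed −log10 p were within 0.05 of the deposited ones for 100% of the peaks. Where the summit and 1 kb windows gave the same background (8.53% of all peaks), the summit window was counted. Intervals are exact Poisson or, for ratios, exact binomial. Recovery of the ChIP reads was tested on simulated peaks (100% of 21361), made with the same formula that the recovery inverts. Software was scipy 1.17.1, pandas 2.3.3, numpy 2.4.6 and matplotlib 3.10.9 under Python 3.11.15. The members, the motif list and the tests were chosen with earlier results of these data known. Named genes were limited to the 2 members, with every peak in their windows accounted for. Peaks elsewhere were named only as neighbours in rank by fold, at the window borders or for the most neighbours of any strong peak. The last kind was chosen after its values were seen. Gene neighbours came from RefSeq order on GRCh38.p14, without coordinates. Alternatives covered the window, the list, the ranking, the background, the tiles and the motif window.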

Additional observations from a re-analysis of the deposited data

How the results depend on the processing

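No paired analysis was possible because each group has 1 sample, and no replicate could be left out. Of 39 alternatives, 15 stayed within 1.5 times the value reported or, for folds, within its counting interval. The 12 LAPTM5 peaks were 9 without flanks, 15 with 50 or 100 kb flanks, 12 in the cleaned list and 10 after merging peaks within 500 bp, but 4 at a fold of at least 5 and 4 in the top 10% by −log10 q, both stricter by construction. The 2 KLHL14 peaks were 1 without flanks, since the start-site summit lies just beyond the rounded border, 4 with 50 kb, 6 with 100 kb, and 1 under either stricter threshold. With pileup and background both halved, 11 of the 12 LAPTM5 peaks still reached the lowest −log10 p of the list (3.74). With the window's highest background at every peak, 11 did, and a different peak was lost. Both KLHL14 peaks were kept in both settings, which were added after seeing the data. LAPTM5's rank of 45 by fold was 9 by −log10 q, 9 by reads, 9 with the genome-mean background and 3 within its chromosome. KLHL14's rank of 12 was 22, 63, 63 and 1 in that order. With the genome mean as background, rank follows reads by construction. The LAPTM5 fold of 14.3 was 10.9 with a pseudocount of 5, 53.1 on the genome-mean background and 9.74 on the highest background of its window. That of KLHL14, 18.3, was 21.2 without a pseudocount, 12.1, 41.6 and 9.98 in these settings, so that on the highest background of each window both fell below 10. The share of tiles with at least 12 peaks, 0.0457%, was 0.0348% on the moved grid and 0.0794% on chromosome 1. The share for KLHL14 was 21.2% and 16.7%. Of the 4 LAPTM5 motif matches 0 were left without the first 150 bases of the promoter window. The KLHL14 promoter alternative was not run.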

Other observations

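Beyond the windows, within 300 kb of the genes, 8 further peaks lay around LAPTM5 and 5 around KLHL14. These values were looked at after the members had been described. On the upstream side of LAPTM5, the side of SDC3, 6 peaks were listed, of which a chromosome 1 peak from 31341914 to 31342292, 111 kb from the LAPTM5 start, held 133 ChIP reads (exact Poisson 95% interval 111 to 158) and a fold of 10.8. A peak from 31354193 to 31354625 followed with 126 reads (105 to 150) and a fold of 8.35. Only 2 were listed on the side of MATN1, with folds of 4.03 and 4.01. Upstream of KLHL14, on the side of CCDC178, a chromosome 18 peak from 30383126 to 30383842, 30.7 kb from the start, held 138 reads (116 to 163) with a fold of 4.81, over 15 background reads. A peak from 30554509 to 30555186, 202 kb from the start, held 133 reads (111 to 158) and a fold of 6.74. On the side of GAREM1, 2 peaks had folds of 4.22 and 2.56. No peak was assigned to a gene.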
